A study of Homo sapiens with 21 samples.

Results

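Integrins and laminins are the receptors and the ligands of cell attachment to basement membrane, and 35 of the 42339 genes in the count table encode them. The members were chosen by symbol, with each Ensembl identifier in the table matched without its version. They comprise 17 integrin alpha subunits, 8 integrin beta subunits, 5 laminin alpha chains, 3 laminin beta chains and 2 laminin gamma chains. BT-549 is an established triple-negative breast cancer (TNBC) cell line, wild-type for BRCA1 according to the labels, and bulk RNA-seq was performed on 21 cultures of it, 3 in each of 7 groups.

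The 2D cells were parental BT-549 cells growing attached to plastic in RPMI1640 medium with fetal bovine serum and insulin, without treatment. The 3D cells were the same parental cells after 6 serial passages as mammospheres, which are spheres grown in MammoCult medium on ultra-low attachment plates. Substrate, medium and passage therefore differ together between 2D and 3D cells, and their effects on a gene cannot be told apart. GO-203-treated 3D cells were such passage 6 mammospheres treated with 0.75 μM GO-203, an inhibitor of MUC1-C, the transmembrane subunit of the mucin MUC1. The other 4 groups were mammospheres of the BT-549/tet-MUC1shRNA line at passage 6 and of the BT-549/tet-MYCshRNA line at passage 8, each carrying 1 doxycycline-inducible shRNA. They were treated with vehicle (0.1% DMSO) or with 500 ng/ml doxycycline (DOX), which switches on the shRNA. No control-shRNA library was analysed here, so the effects of an shRNA and of DOX itself cannot be told apart, and neither can line and passage. Cells were cultured in triplicate according to the methods of the study, which do not say how far the 3 cultures of a group were independent, so p-values measure the spread between these samples, which may be partly technical.

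An integrin is a pair of 1 alpha and 1 beta subunit that spans the plasma membrane, binds matrix proteins outside the cell and couples to actin through adaptors such as talin inside it. The alpha subunit sets much of the ligand choice, and subunits are commonly grouped as collagen-binding, laminin-binding, RGD-binding and leukocyte-specific. A laminin is a cross-shaped trimer of 1 alpha, 1 beta and 1 gamma chain, and laminins are the main adhesive scaffold on which breast epithelial cells rest.

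Libraries held between 38026597 and 99751717 counts, so that counting error was small for genes above a few CPM (read counts of a gene on a common library size, set with TMM factors over the 21 libraries). MUC1 was at 83.2 to 101 CPM in the vehicle-treated and 19.7 to 23.3 CPM in the DOX-treated tet-MUC1shRNA libraries. MYC was at 386 to 439 CPM in the vehicle-treated and 244 to 297 CPM in the DOX-treated tet-MYCshRNA libraries, a smaller decrease on the log2 scale (log2 fold change -0.62) than that of MUC1 (-2.06). With MYC silencing MUC1 itself rose by 1.25 (66.5 to 73.4 CPM with vehicle, 139 to 194 CPM with DOX), and with MUC1 silencing MYC rose by 0.25. The labelled tissue is epithelial breast, and of 5 epithelial markers EPCAM and KRT19 were at no more than 0.125 and 0.103 CPM in any library, while KRT18, KRT8 and CDH1 reached 0.974, 1.505 and 1.51 CPM and the basal keratin KRT5 reached 97.8 CPM. Of the mesenchymal markers, VIM was at 1076 to 2486 CPM, ZEB1 at 88.0 to 339 CPM and CDH2 at 11.3 to 452 CPM. Among leukocyte and platelet markers, CD3E and PF4 were at no more than 0.0653 and 0.104 CPM, CD14 reached 0.635 CPM, PTPRC reached 1.49 CPM in 2D and 0.157 CPM in the other cells, and GP1BA was at 0.443 to 1.35 CPM in all libraries. The endothelial marker CDH5 was at no more than 0.104 CPM, while PECAM1 was at 5.92 to 7.29 CPM in 3D cells against 0 to 0.0342 CPM in 2D cells.

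Of the 35 members, 24 had enough counts to be tested in all 4 comparisons, 3 (ITGA2B, ITGA9 and ITGB6) in 1 or 2 of them, and 8 in none. The 8 were the leukocyte subunits ITGAL, ITGAM, ITGAX and ITGB2, their relative ITGB7, ITGA8, LAMA1 and LAMC3, none of which exceeded 0.332 CPM or 16 counts in any library. LAMA1 was not listed for the 2D and 3D libraries and was read as 0 there. Among the members tested, 18 were past both thresholds in at least 1 comparison, that is, an adjusted p below 0.1 and a log2 fold change above 1.5 in either direction. That is 18 of the 27 tested at least once, against 24.7% of all 21662 such genes. Of the 24 members tested in all 4 comparisons, 8 passed the adjusted p in all of them, against 13.6% of 17073 genes. "Rose" and "fell" are used for an adjusted p below 0.1 from edgeR's quasi-likelihood test.

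RefSeq promoter sequences (250 bases before to 50 bases after an annotated gene start, GRCh38.p14) were found for 25 of the 35 members, 32 promoters in all. They were searched on both strands for CACGTG, the canonical E-box, a palindrome that MYC with its partner MAX is known to bind. Of the 32 promoters, 1 held it (3.125%), against 7.26% of 35116 promoters of this length. A match is a description of letters and not a binding site. The single match was in an ITGA6 promoter (chr2:172427086-172427385, plus strand), with the E-box starting 101 bases before the gene start and shown in capitals. The promoters of LAMA4, which had the largest fold change of any member, and of LAMB1, the member past both thresholds downward in both silencing comparisons, are printed beside it. LAMA4 lies at chr6:112254518-112254817 on the minus strand and LAMB1 at chr7:108003112-108003411 on the minus strand, and neither window holds the E-box.
ITGA6: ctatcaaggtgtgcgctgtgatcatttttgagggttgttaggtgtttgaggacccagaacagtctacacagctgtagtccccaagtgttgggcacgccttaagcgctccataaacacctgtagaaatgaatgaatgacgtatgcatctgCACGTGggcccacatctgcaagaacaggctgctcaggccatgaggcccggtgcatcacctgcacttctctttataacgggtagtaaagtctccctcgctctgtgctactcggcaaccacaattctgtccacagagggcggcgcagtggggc
LAMA4: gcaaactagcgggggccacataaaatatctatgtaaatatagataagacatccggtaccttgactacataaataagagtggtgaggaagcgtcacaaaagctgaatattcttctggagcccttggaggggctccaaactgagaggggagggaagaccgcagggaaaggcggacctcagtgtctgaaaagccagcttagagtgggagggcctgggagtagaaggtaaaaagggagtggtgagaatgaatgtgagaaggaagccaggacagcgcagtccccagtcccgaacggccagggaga
LAMB1: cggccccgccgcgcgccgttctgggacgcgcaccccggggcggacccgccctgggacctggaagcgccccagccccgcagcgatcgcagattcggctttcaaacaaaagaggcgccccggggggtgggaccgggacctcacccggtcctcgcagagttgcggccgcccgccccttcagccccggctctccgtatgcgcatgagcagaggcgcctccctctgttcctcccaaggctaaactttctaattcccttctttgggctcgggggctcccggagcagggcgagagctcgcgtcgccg

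The first comparison asked how the attachment genes of BT-549 cells differ between anchorage-independent 3D and attached 2D growth. In 3D vs. 2D cells, 11 of the 24 members tested rose and 8 fell, against 32.0% of all 19190 genes tested that rose and 31.7% that fell. Past both thresholds were 9 members, 8 of them upward, against 16.2% of all genes. With a fold change of 1.5 as the second threshold there were 14, against 39.0% of all genes. The median log2 fold change of the 24 was 0.15, beside -0.01 over all genes tested. The upward members were LAMA2, LAMA4, LAMA5, ITGA1, ITGA5, ITGA7, ITGA10 and ITGB4, and the downward member was ITGB3.

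LAMA4 encodes the alpha chain of laminins of vessel walls and mesenchymal tissues (chromosome 6, 112107931 to 112254939, minus strand). It was at 0.843, 1.18 and 1.71 CPM in the 2D libraries and at 211, 209.6 and 209 CPM in the 3D libraries. The groups were far apart, with a 164-fold difference (log2 fold change 7.36, SE 0.13, edgeR's adjusted p = 9.5e-17). In bulk RNA, more cells that express a gene and more RNA per cell cannot be told apart, here or in the results that follow. LAMA5, the alpha chain of many adult epithelial and vascular laminins, was at 39.9, 46.3 and 38.9 CPM in 2D cells. In 3D cells LAMA5 was at 178, 173 and 153 CPM, again without overlap (log2 fold change 2.01, SE 0.08, edgeR's adjusted p = 1.6e-12). LAMA2, the alpha chain of muscle and nerve basement membranes, rose from 3.17, 3.11 and 4.33 CPM to 14.7, 15.9 and 14.6 CPM (log2 fold change 2.08, SE 0.13). LAMA3, the alpha chain of the laminin under stratified and glandular epithelia, moved the other way. It was at 54.1, 56.4 and 63.3 CPM in 2D cells and at 25.1, 24.9 and 24.1 CPM in 3D cells (log2 fold change -1.24, SE 0.07, edgeR's adjusted p = 2.5e-10). The beta and gamma chains changed little. LAMB2 rose by a log2 fold change of 0.21, a call that was lost without the 2D library of replicate 1 (edgeR's adjusted p = 0.101). LAMC1, the gamma chain of most laminins, was at 670.4, 689.7 and 691 CPM in 2D and at 563, 560.2 and 552 CPM in 3D cells, a decrease of 0.30. LAMB1 and LAMB3 did not pass the test (log2 fold changes -0.05, 95% interval -0.15 to 0.06, and 0.44, -0.17 to 1.04). LAMB3 passed in the fit of all 21 libraries (edgeR's adjusted p = 0.046) and LAMB1 with library size alone (-0.11, edgeR's adjusted p = 0.0877).

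Divided by exon length, these levels give the composition of each chain class, taken as the share of a gene in the summed CPM per kb of the members of its class. LAMA3 made up 55.9% ± 3.07 and LAMA4 1.44% ± 0.449 of the laminin alpha level of attached cells (SD, n = 3). Mammospheres held the 2 chains at 5.41% ± 0.0660 and 55.5% ± 1.64 (SD, n = 3). The LAMA5 shares, 40.8% ± 3.71 in 2D and 37.2% ± 1.73 in 3D growth (SD, n = 3), overlapped. The summed laminin alpha level went from 7.15 ± 0.379 to 31.5 ± 1.08 CPM per kb (SD, n = 3). The laminin beta level was 36.0 ± 2.49 and 39.0 ± 1.37 CPM per kb, and the gamma level, nearly all of it LAMC1, was 81.0 ± 1.37 and 66.1 ± 0.651 (SD, n = 3). No test was run on shares, which are given as values. Division by the length of the MANE Select transcript (1 reference transcript per gene) in place of all annotated exons gave 56.5% and 4.87% for LAMA3 and 1.77% and 61.0% for LAMA4.

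**Figure D1:**
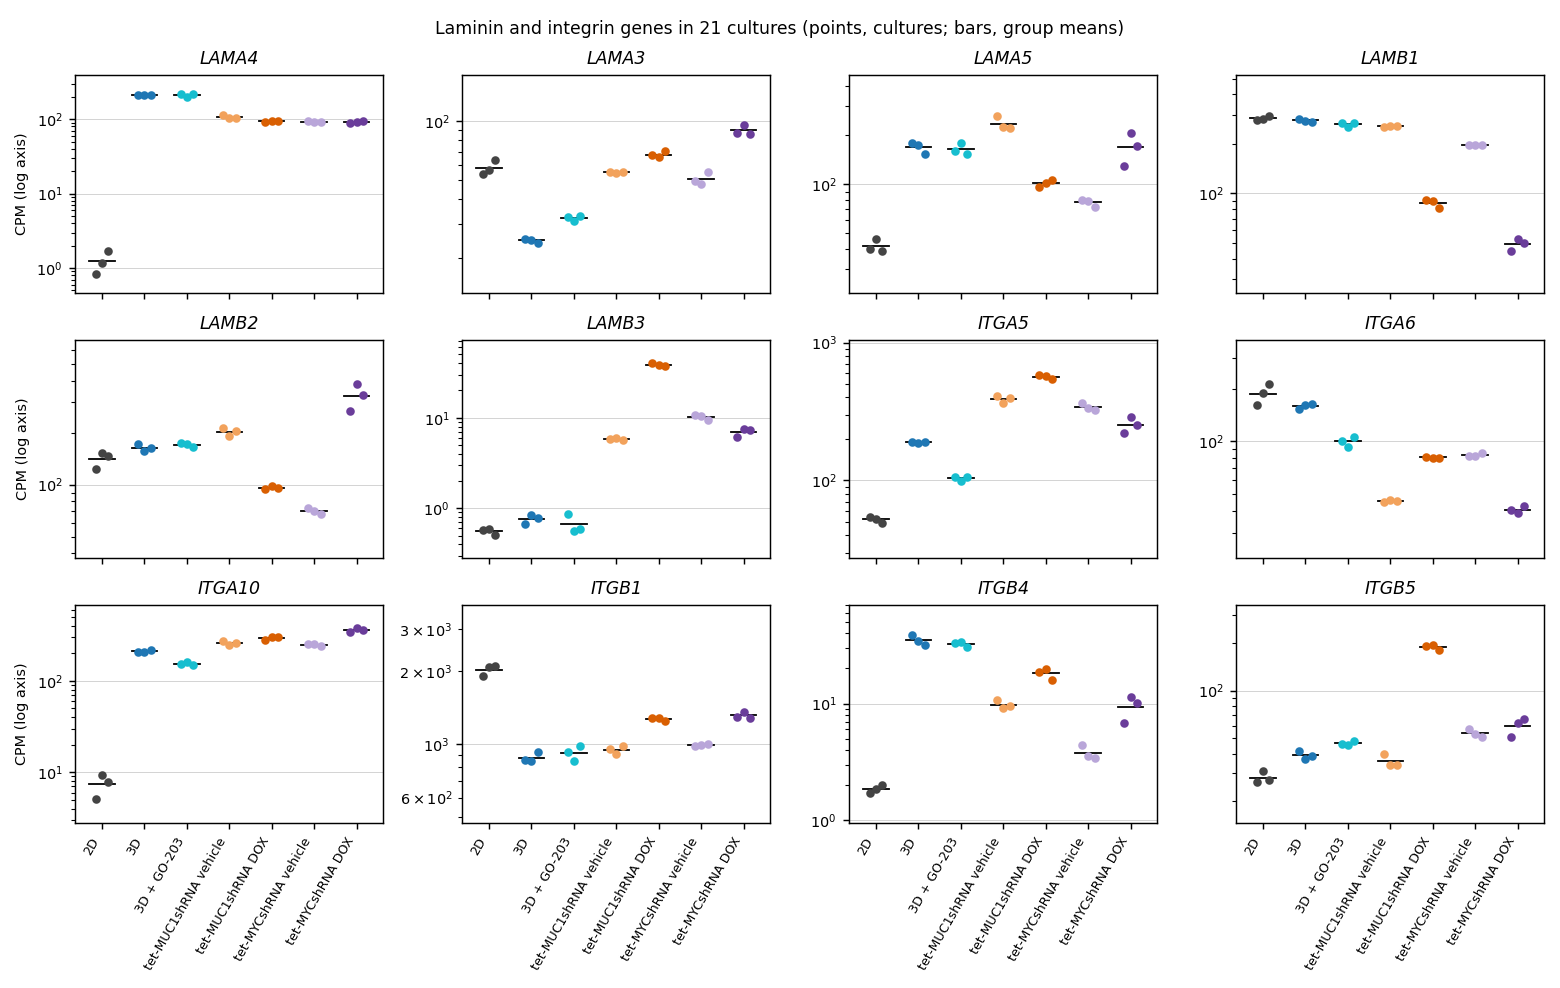
CPM (log axis) of 12 laminin and integrin genes in each of the 21 cultures, by group. Points are cultures and bars are group means. LAMA4 sits at 0.843 to 1.71 CPM in 2D cells and at 88.9 CPM or more in every mammosphere culture, while LAMB1 is lowest in the DOX-treated groups.

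Among the integrin alpha subunits, the collagen receptor ITGA10 had the largest log2 fold change of those tested. It was at 5.04, 9.28 and 7.92 CPM in 2D cells and at 209.6, 205 and 219 CPM in 3D cells (log2 fold change 4.81, SE 0.14, edgeR's adjusted p = 3.6e-14). The other collagen-binding subunits were expressed at low levels. ITGA1 had 8, 0 and 0 counts in the 2D and 28, 56 and 42 counts in the 3D libraries, and its log2 fold change of 3.85 (95% interval 2.32 to 5.38) rests on those few counts. Without the 2D library of replicate 1, which leaves 0 counts in the 2D group, the fitted value was 8.44, and leaving out any other library gave 3.22 or more. Of its annotated exon length, 5.77% is shared with other genes on the same strand. ITGA2 and ITGA11 did not pass the test (edgeR's adjusted p = 0.338 and 0.176).

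ITGA5, the alpha subunit of the classical fibronectin receptor, was at 54.0, 52.9 and 49.6 CPM in 2D cells and at 191, 187 and 189.9 CPM in 3D cells (log2 fold change 1.86, SE 0.06, edgeR's adjusted p = 9.1e-14). Its ligand FN1 rose in the same comparison by a log2 fold change of 3.89. ITGAV, which pairs with several beta subunits to bind vitronectin and other RGD ligands, was lower in 3D cells, at 228, 230.2 and 252 CPM against 385, 378 and 409 CPM in 2D cells (log2 fold change -0.73, SE 0.06). The laminin-binding subunits did not move together. ITGA3 rose from 115, 115 and 96.9 CPM to 308, 287 and 289.7 CPM (log2 fold change 1.43, SE 0.07). ITGA7 rose too, from 0.266, 0.278 and 0.308 CPM to 1.39, 0.976 and 0.992 CPM (3.88-fold, SE 0.33 on the log2 scale). ITGA6 was at 161, 189 and 212 CPM in 2D and 153, 160.1 and 163 CPM in 3D cells, and its groups overlapped (log2 fold change -0.24, edgeR's adjusted p = 0.0145). Without the 2D library of replicate 3 or the 3D library of replicate 1, ITGA6 no longer passed (edgeR's adjusted p = 0.115 and 0.100). ITGA4, which binds fibronectin and VCAM1, did not pass (log2 fold change 0.09, 95% interval -0.02 to 0.21).

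ITGB4, the partner of ITGA6 in hemidesmosomes, was at 1.71, 1.84 and 2.00 CPM in 2D cells and at 39.1, 34.7 and 32.1 CPM in 3D cells (log2 fold change 4.24, SE 0.11, edgeR's adjusted p = 1.1e-14). ITGB1, the common partner of most alpha subunits, was at 1921, 2078 and 2096 CPM in 2D and at 859, 852 and 925 CPM in 3D cells (log2 fold change -1.21, SE 0.05, edgeR's adjusted p = 7.1e-12). The 2 groups did not overlap for either subunit. ITGB3, the beta subunit of the vitronectin and platelet fibrinogen receptors, was at 2.15, 2.12 and 2.53 CPM in 2D and at 0.581, 0.722 and 0.589 CPM in 3D cells (log2 fold change -1.85, SE 0.24). Another annotated gene shares 33.2% of the ITGB3 exon length on the same strand. ITGB8 fell by a log2 fold change of 1.13 and ITGB5 rose by 0.46. ITGAE, the alpha subunit of an integrin that binds E-cadherin, fell by 0.39. The share of ITGB1 in the beta level per kb was 96.5% ± 0.196 in 2D and 84.1% ± 1.40 in 3D growth (SD, n = 3), or 98.7% and 94.0% with the MANE Select length. Of the alpha level per kb, ITGA6 made up 37.2% ± 3.37 and 17.8% ± 0.551, and ITGA10 1.57% ± 0.422 and 25.4% ± 0.467, in 2D and 3D cells (SD, n = 3). With the MANE Select length these shares were 23.7% and 12.5% for ITGA6 and ITGA10 held 18.8% in 3D cells. Which subunit led depends on the length. Over all exons it was ITGA6 in 2D and ITGA10 in 3D cells, and over the MANE Select transcript ITGAV (40.9%) in 2D and ITGA3 (27.5%) in 3D cells. The basal epithelial keratin KRT5 was at 0 to 0.0684 CPM in 2D and 22.2 to 25.8 CPM in 3D cells, whereas TP63 of the same list fell (1.68 to 1.93 CPM in 2D, 0.0781 to 0.125 CPM in 3D cells). CDH2 (log2 fold change -3.11) and PTPRC (-4.30) fell, ZEB1 (1.14) and CD14 (2.74) rose, and of the epithelial markers CDH1 fell (1.27 to 1.51 CPM in 2D, 0 in 3D cells) and KRT8 rose (log2 fold change 1.51). The part of cells marked by these genes or by PECAM1 in the members' differences was not tested.

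Vehicle-treated mammospheres of the transduced lines had other levels of some of these genes than parental 3D cells, without a test of that difference. ITGB4 was at 9.08 to 10.7 CPM in vehicle-treated tet-MUC1shRNA and 3.40 to 4.42 CPM in vehicle-treated tet-MYCshRNA mammospheres, against 32.1 to 39.1 CPM in 3D cells. LAMB3 was at 5.74 to 6.00 and 9.46 to 10.6 CPM there, against 0.664 to 0.839 CPM in 3D cells. With the tet-MUC1shRNA vehicle libraries in place of 3D cells, 8 of the 9 members were past both thresholds over 2D cells in the same direction, and ITGB3 was past both in the other direction (log2 fold change 1.84). With the tet-MYCshRNA vehicle libraries, 5 of the 9 were (ITGA1, ITGA5, ITGA7, ITGA10 and LAMA4), while ITGB4 (1.03), LAMA2 (1.18) and LAMA5 (0.89) rose by less and ITGB3 rose by 0.42. LAMB3 was higher than in 2D cells with both (3.38 and 4.18, edgeR's adjusted p = 6.1e-11 and 1.2e-11), and LAMB2 was lower with the tet-MYCshRNA libraries (-0.998). LAMB1, which did not pass in 3D vs. 2D cells, was lower than in 2D cells with the tet-MUC1shRNA and the tet-MYCshRNA libraries (-0.17 and -0.53, edgeR's adjusted p = 0.00639 and 2.2e-07). LAMA3 did not differ by the test with the tet-MUC1shRNA libraries (-0.08, edgeR's adjusted p = 0.313). LAMA4 was higher than in 2D cells by a log2 fold change of 6.40 and 6.18 in the vehicle-treated lines. Members outside the 9 moved as well. Over all processing settings, these fits included, log2 fold changes over 2D cells were as low as -2.05 for ITGA6 and -3.03 for ITGB8.

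The second comparison asked what silencing of MUC1 does to these genes in mammospheres. In DOX- vs. vehicle-treated tet-MUC1shRNA mammospheres, 17 of the 26 members tested rose and 7 fell, against 30.7% and 31.6% of all 19220 genes tested. Past both thresholds were 8 members, 5 upward and 3 downward, against 8.82% of all genes. At the 1.5-fold threshold there were 13, against 32.2%. The upward members were ITGA2, ITGB5, ITGB6, ITGB8 and LAMB3, and the downward members were ITGA2B, ITGA4 and LAMB1. The median log2 fold change of the 26 was 0.33, beside 0.02 over all genes.

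ITGA2, a collagen and laminin receptor of epithelia and platelets (chromosome 5, 52989340 to 53094779, plus strand), was at 0.783, 0.377 and 0.787 CPM with vehicle and at 12.7, 12.5 and 12.9 CPM with DOX (log2 fold change 4.30, SE 0.17, edgeR's adjusted p = 9.2e-15). LAMB3, the beta chain that joins LAMA3 in the epithelial laminin of hemidesmosomes, was at 5.87, 6.00 and 5.74 CPM with vehicle and at 40.5, 38.6 and 36.9 CPM with DOX (log2 fold change 2.74, SE 0.07, edgeR's adjusted p = 3.8e-17). The DOX-treated libraries were highest of all 21 for both genes. ITGB5, which pairs with ITGAV, was at 40.0, 33.8 and 34.0 CPM with vehicle and at 193, 194 and 182 CPM with DOX (log2 fold change 2.43, SE 0.06, edgeR's adjusted p = 7.2e-18). ITGB8, another partner of ITGAV that binds latent TGF-beta, was at 0.261, 0.282 and 0.433 CPM with vehicle and at 2.92, 3.54 and 2.18 CPM with DOX (log2 fold change 3.14, SE 0.27). ITGB6, an epithelial partner of ITGAV that also activates TGF-beta, had 6, 2 and 4 counts with vehicle and 48, 24 and 18 counts with DOX (log2 fold change 2.52, 95% interval 1.40 to 3.63). Another annotated gene shares 16.7% of the ITGB6 exon length on the same strand. ITGAV itself rose by a log2 fold change of 0.48. Markers of epithelial cells rose in the same libraries from near 0, with a summed level of EPCAM, CDH1, KRT8, KRT18 and KRT19 of 0.0522 to 0.141 CPM with vehicle and 2.38 to 2.72 CPM with DOX. The 3 of these 5 markers that could be tested (CDH1, KRT8 and KRT18) passed both thresholds upward, and EPCAM and KRT19 remained at or near 0. The basal keratin KRT5 was at 0.826 to 1.62 CPM with vehicle and at 14.5 to 16.4 CPM with DOX. Of the mesenchymal markers, CDH2 (log2 fold change 2.67) and VIM (0.18) rose and ZEB1 (-1.41) fell, as did the endothelial marker PECAM1 (-0.43). The part of cells marked by these genes in the members' changes was not tested.

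Among the decreases, LAMB1, the widespread beta chain that joins LAMC1 in most embryonic and mesenchymal laminins, was at 253, 259 and 257 CPM with vehicle. With DOX it was at 91.7, 90.0 and 82.1 CPM, a log2 fold change of -1.52 (SE 0.05, edgeR's adjusted p = 1.6e-16), close to the threshold of 1.5. LAMB1 fell short of that threshold with library size alone (-1.35, with 6 members past both thresholds) and without the DOX-treated library of replicate 3 (-1.48, also 6). ITGA4 was at 72.2, 63.3 and 71.4 CPM with vehicle and at 17.5, 17.6 and 18.0 CPM with DOX (log2 fold change -1.94, SE 0.06, edgeR's adjusted p = 4.2e-16). Of its exon length, 26.4% lies opposite CERKL on the other strand. ITGA2B, the platelet fibrinogen receptor subunit, had 22, 26 and 13 counts with vehicle and 9, 13 and 5 with DOX (log2 fold change -1.59, 95% interval -2.55 to -0.62), the platelet marker PF4 was at or near 0, and the platelet marker GP1BA fell as well (-0.73). The part of such cells in the ITGA2B change was not tested. ITGA2B fell short of the threshold of 1.5 in some fits, reaching -1.42 over the processing settings and -1.38 when 1 library was left out. LAMA5 and LAMB2 fell by log2 fold changes of 1.19 and 1.05. ITGA1 (1.24), ITGB4 (0.93), ITGA6 (0.85), ITGA5 (0.56), ITGB1 (0.44), ITGAE (0.44), LAMC1 (0.34), LAMA3 (0.32) and LAMA2 (0.27) rose by less than the threshold on the log2 scale. ITGB3 fell by 0.56, and LAMA4 fell by 0.18, a call that was lost when libraries were scaled by size alone (-0.02). ITGA3 (0.18) and ITGA10 (0.21) rose, calls that were lost in a fit of all 21 libraries (edgeR's adjusted p = 0.158 and 0.108). ITGA7 (-0.14, 95% interval -0.37 to 0.09) and ITGA11 (0.33) did not pass. With a stricter filter that left out genes below 10 counts in any library, 5 members were past both thresholds, since ITGA2B and ITGB6 were removed and LAMB1 came to -1.47.

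LAMB3 was 2.84% ± 0.136 of the laminin beta level per kb with vehicle and 30.8% ± 0.817 with DOX (SD, n = 3), or 1.78% and 22.9% with the MANE Select length. LAMA3 was 12.7% ± 0.820 of the alpha level with vehicle and 22.9% ± 0.766 with DOX, while LAMA5 was 54.8% ± 1.46 and 34.7% ± 0.985 (SD, n = 3). ITGB5 was 7.52% ± 0.641 of the integrin beta level with vehicle and 24.3% ± 0.341 with DOX (SD, n = 3), or 3.06% and 11.0% with the MANE Select length. None of these ranges overlap.

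**Figure D2:**
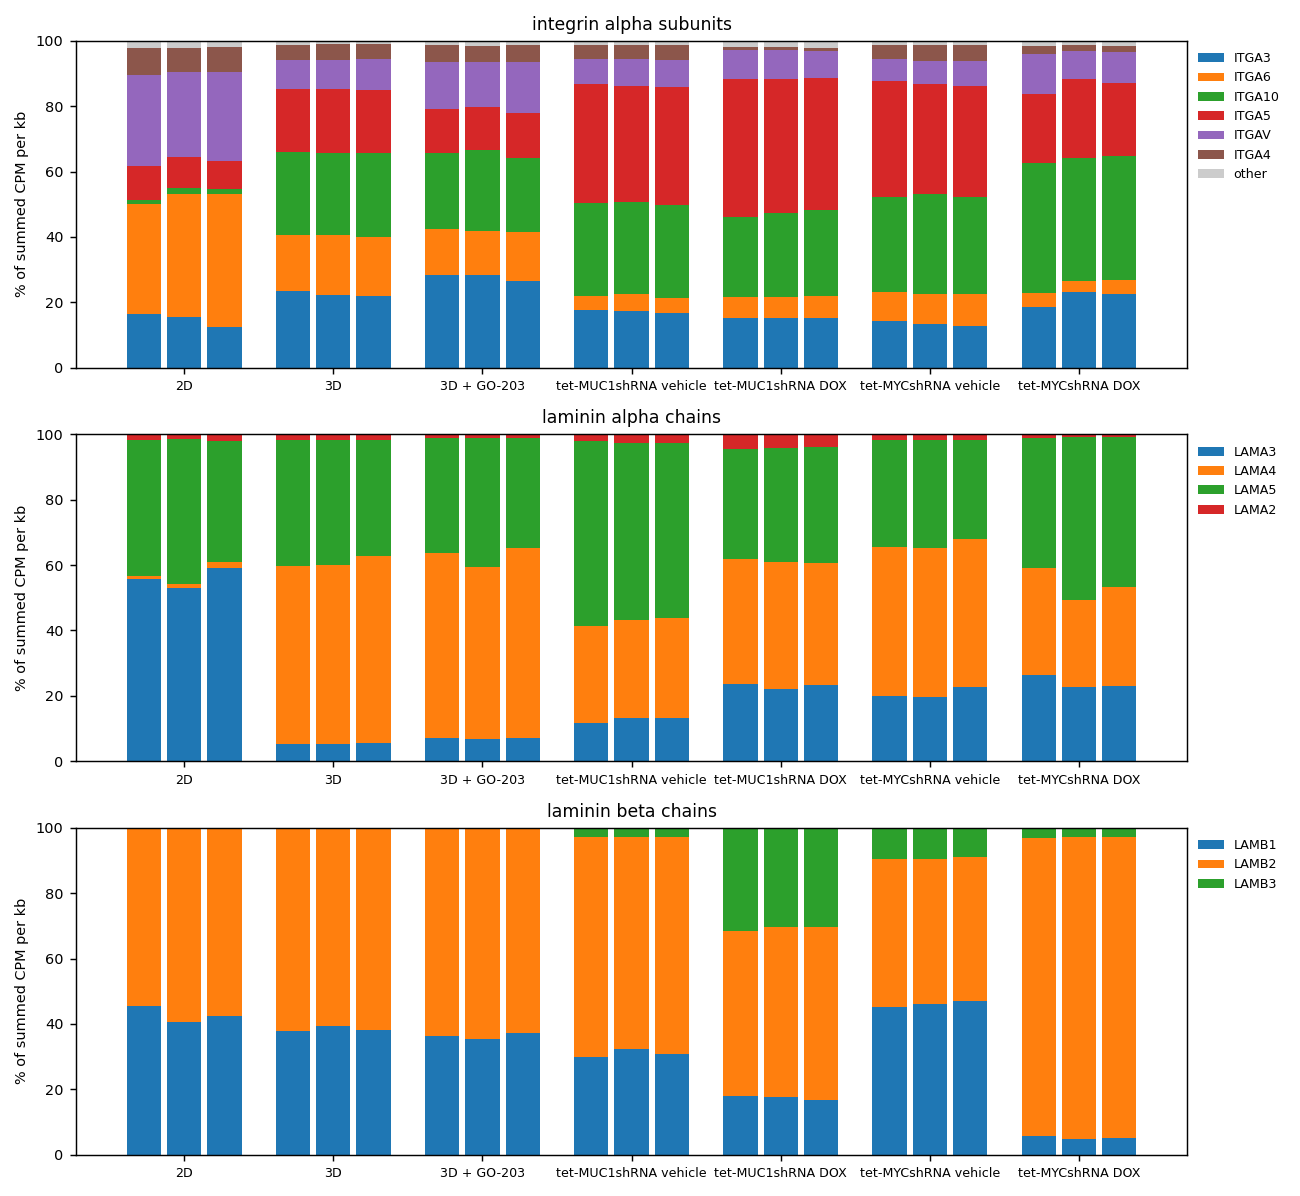
Share of each gene in the summed CPM per kb of annotated exons of its class, in percent, for integrin alpha subunits, laminin alpha chains and laminin beta chains. Each bar is 1 culture and 3 adjacent bars are 1 group. LAMA3 gives way to LAMA4 between 2D and 3D cells, LAMB3 reaches 30.8% with MUC1 silencing and LAMB2 reaches 91.9% with MYC silencing.

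The third comparison used GO-203 to target MUC1-C function without silencing the gene. In GO-203-treated vs. untreated 3D cells, 6 of the 24 members tested rose and 5 fell, against 11.1% and 12.9% of all 18488 genes tested, and 13 did not pass. ITGB8 alone was past both thresholds, against 0.757% of all genes, and at the 1.5-fold threshold 5 members were, against 5.63%. It was at 1.39, 1.25 and 1.12 CPM in untreated and at 4.91, 4.39 and 4.76 CPM in GO-203-treated 3D cells (log2 fold change 1.94, SE 0.18, edgeR's adjusted p = 6.5e-08). The median log2 fold change of the 24 was -0.01, beside 0.02 over all genes. ITGA5 was at 191, 187 and 189.9 CPM in untreated and at 107, 98.6 and 105 CPM in treated cells (log2 fold change -0.84, SE 0.06, edgeR's adjusted p = 3.9e-10). ITGA6 was at 153, 160.1 and 163 CPM and at 100.3, 92.9 and 106 CPM (log2 fold change -0.64, SE 0.06, edgeR's adjusted p = 5.1e-08). Neither pair of groups overlapped. ITGA10 (-0.42), ITGA4 (-0.22) and LAMA2 (-0.59) also fell, and ITGA7 (0.93), ITGAV (0.35), ITGB5 (0.29), LAMA3 (0.42) and LAMC1 (0.16) rose. The LAMC1 call was lost without the GO-203-treated library of replicate 1 (edgeR's adjusted p = 0.143). LAMA4 (0.05, 95% interval -0.06 to 0.16), LAMA5 (-0.0014, -0.14 to 0.14), LAMB1 (-0.05, -0.15 to 0.06) and LAMB2 (0.09, -0.03 to 0.20) did not pass, nor did 9 others with log2 fold changes from -0.28 (ITGA11) to 0.16 (ITGA2). The intervals of LAMA5, LAMB1 and LAMB2 do not reach the log2 fold changes of these genes with MUC1 silencing. The basal keratin KRT5 was at 22.2 to 25.8 CPM in untreated and 90.5 to 97.8 CPM in treated 3D cells, and the part of cells marked by KRT5 in the members' changes was not tested.

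GO-203 treatment and MUC1 silencing used separate libraries and different mammospheres. Of the 24 members tested in both, 10 passed in both, with 6 in the same direction (ITGA4, ITGAV, ITGB5, ITGB8, LAMA3 and LAMC1) and 4 in opposite directions (ITGA5, ITGA6, ITGA10 and LAMA2). The share in opposite directions, 40% of the members, was 39.9% over all 3377 genes that passed in both. GO-203 treatment and MYC silencing also had no library in common. The members that passed in both numbered 10 again, 9 of them in the same direction and ITGA10 in the opposite one, a share of 10% beside 16.8% of 3438 genes.

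The fourth comparison asked the same of MYC. In DOX- vs. vehicle-treated tet-MYCshRNA mammospheres, 12 of the 26 members tested rose and 8 fell, against 30.3% and 28.1% of all 19951 genes tested. Past both thresholds were 4 members, ITGA7 and LAMB2 upward and ITGB3 and LAMB1 downward, against 10.5% of all genes. At the 1.5-fold threshold there were 14, against 37.7%. The median log2 fold change of the 26 was 0.27, beside 0.01 over all genes. The DOX-treated library of replicate 1 stood apart from replicates 2 and 3 (chi-square per degree of freedom 52.8 and 36.3, against 19.5 between those and at most 21.04 in the other groups), and without it 13 members rose, 8 fell and 4 were past both thresholds. LAMB1 was at 198, 198 and 197 CPM with vehicle and at 44.9, 52.9 and 49.9 CPM with DOX (log2 fold change -2.03, SE 0.07, edgeR's adjusted p = 1.4e-08). LAMB2, the beta chain of synaptic, glomerular and vascular basement membranes (chromosome 3, 49121114 to 49133118, minus strand), was at 73.2, 70.0 and 67.9 CPM with vehicle and at 266, 384 and 331 CPM with DOX (log2 fold change 2.19, SE 0.12, edgeR's adjusted p = 1.7e-07, or 2.32 without the DOX-treated library of replicate 1). The 2 beta chains thus moved in opposite directions in the same libraries, without overlap of the groups for either. LAMB2 was 44.5% ± 0.703 of the laminin beta level per kb with vehicle and 91.9% ± 0.689 with DOX (SD, n = 3), or 24.8% and 84.5% with the MANE Select length. LAMB1 was 46.1% ± 0.979 and 5.17% ± 0.489 (SD, n = 3), or 70.1% and 13.0%, so which of the 2 chains led with vehicle depends on the length used.

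ITGA7, a laminin receptor of muscle, was at 2.96, 2.69 and 2.63 CPM with vehicle and at 11.4, 11.4 and 10.4 CPM with DOX (log2 fold change 1.99, SE 0.12, edgeR's adjusted p = 4.2e-07). ITGB3 was at 2.77, 3.03 and 3.32 CPM and at 0.706, 0.930 and 0.854 CPM (log2 fold change -1.89, SE 0.19, edgeR's adjusted p = 1.6e-05). Of the 6 other laminin chains tested, 3 rose, 2 fell and 1 did not pass. LAMA5 was at 79.7, 79.0 and 72.8 CPM with vehicle and at 129, 207 and 171 CPM with DOX (log2 fold change 1.11, SE 0.14, or 1.27 without replicate 1), and LAMA3 (0.81) and LAMC1 (0.70) rose as well. LAMB3 fell by a log2 fold change of 0.55, and LAMA4 did not pass (-0.02, 95% interval -0.14 to 0.09). LAMA2 fell by 0.26 (edgeR's adjusted p = 0.0632). That call was lost with the replicate number as a block (edgeR's adjusted p = 0.164) and without a low-count filter (0.140). It was also lost without any 1 of the 3 vehicle-treated libraries (0.105 to 0.145) and without the DOX-treated library of replicate 3 (0.149). Among the receptors, ITGA6 was at 82.7, 81.9 and 85.3 CPM with vehicle and at 40.4, 38.8 and 42.5 CPM with DOX (log2 fold change -1.06, SE 0.07, edgeR's adjusted p = 5.7e-07). ITGA4 (-1.11), ITGA5 (-0.46) and ITGAE (-0.45) fell too, and ITGB4 (1.29), ITGB8 (1.05), ITGA1 (0.97), ITGA3 (0.82), ITGAV (0.63), ITGA10 (0.52) and ITGB1 (0.39) rose. ITGA2 (-0.24), ITGA2B (-0.36), ITGA9 (0.16), ITGA11 (0.63) and ITGB5 (0.13) did not pass. Without the DOX-treated library of replicate 1, ITGB5 rose (0.23, edgeR's adjusted p = 0.0113). KRT5 was at 3.85 to 6.62 CPM with vehicle and 54.6 to 73.1 CPM with DOX, while the summed epithelial markers stayed between 0.0403 and 0.147 CPM. PECAM1 (0.45), CDH2 (0.22) and ZEB1 (0.16) rose and VIM fell (-0.18). The part of cells marked by these genes in the members' changes was not tested.

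**Figure D3:**
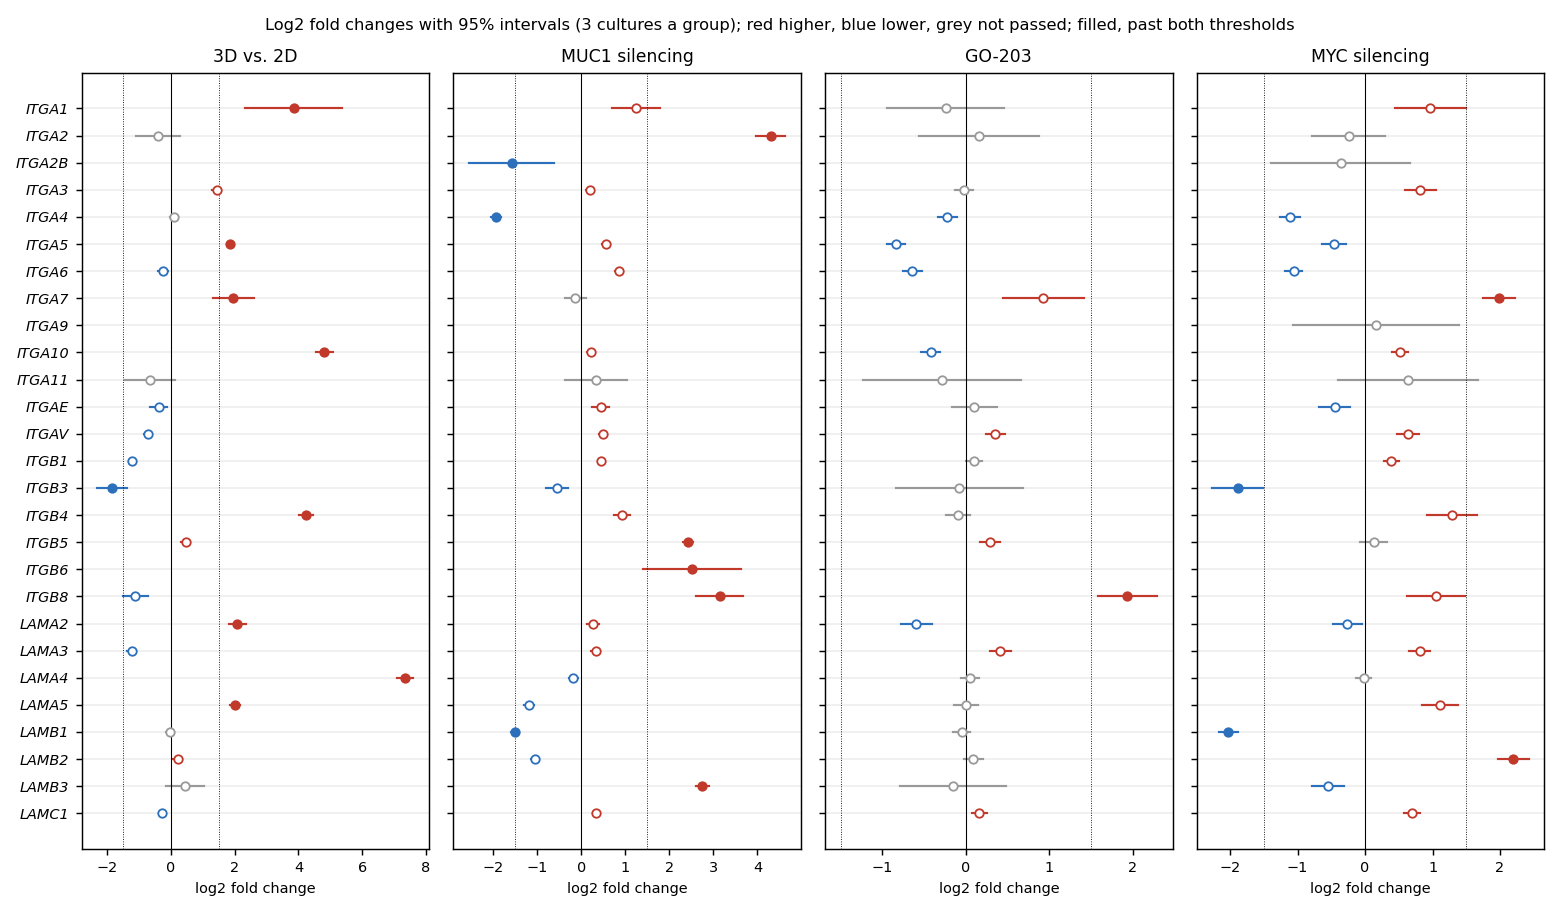
Log2 fold changes with 95% intervals of the 27 members tested in at least 1 of the 4 comparisons, from fits of 3 against 3 cultures. Red is higher, blue is lower, grey did not pass, filled points are past both thresholds and dotted lines mark a log2 of 1.5. The axis of each panel has its own range. LAMA4 reaches 7.36 in 3D vs. 2D cells, and LAMB1 lies below -1.5 in both silencing comparisons.

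The direction of change in 3D vs. 2D cells was set beside that of each silencing, which used other libraries. Of 18 members that passed both in 3D vs. 2D cells and with MUC1 silencing, 8 changed in the same direction and 10 in opposite directions (55.6%, beside 62% of 8260 genes). Of 17 that passed both in 3D vs. 2D cells and with MYC silencing, 10 changed in the same direction and 7 in opposite directions (41.2%, beside 66.4% of 8057 genes). LAMA3, LAMC1, ITGAV, ITGB1 and ITGB8 fell in 3D vs. 2D cells and rose with both silencings.

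The silencing experiments have no library in common, and their effects were compared directly by an interaction over 12 libraries. Of the 19 members that passed in both, 12 changed in the same direction and 7 in opposite directions (ITGA5, ITGA6, ITGAE, LAMA2, LAMA5, LAMB2 and LAMB3), a share of 36.8% beside 43.8% of all 7820 genes that passed in both. The difference, MUC1 silencing minus MYC silencing, was past both thresholds for 8 of the 27 members tested, against 16.2% of all 21585 genes tested. It was positive for ITGA2 (4.54, SE 0.31), LAMB3 (3.28, SE 0.14), ITGB5 (2.29, SE 0.13), ITGB8 (2.09, SE 0.36) and ITGA6 (1.90, SE 0.08). It was negative for LAMB2 (-3.26, SE 0.13), LAMA5 (-2.32, SE 0.17) and ITGA7 (-2.14, SE 0.15). ITGA6, LAMA5, LAMB2 and LAMB3 passed in each silencing comparison with opposite signs. ITGA2, ITGB5 and ITGA7 passed in 1 comparison each. ITGB8 rose in both, by more with MUC1 silencing. LAMB1 fell in both, and its difference was 0.49 (SE 0.09, edgeR's adjusted p = 0.000122). The ITGB1 effects, 0.44 and 0.39, differed by 0.04 (95% interval -0.09 to 0.17, edgeR's adjusted p = 0.635), although scaling by library size alone gave 0.25 (edgeR's adjusted p = 0.00468).

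**Figure D4:**
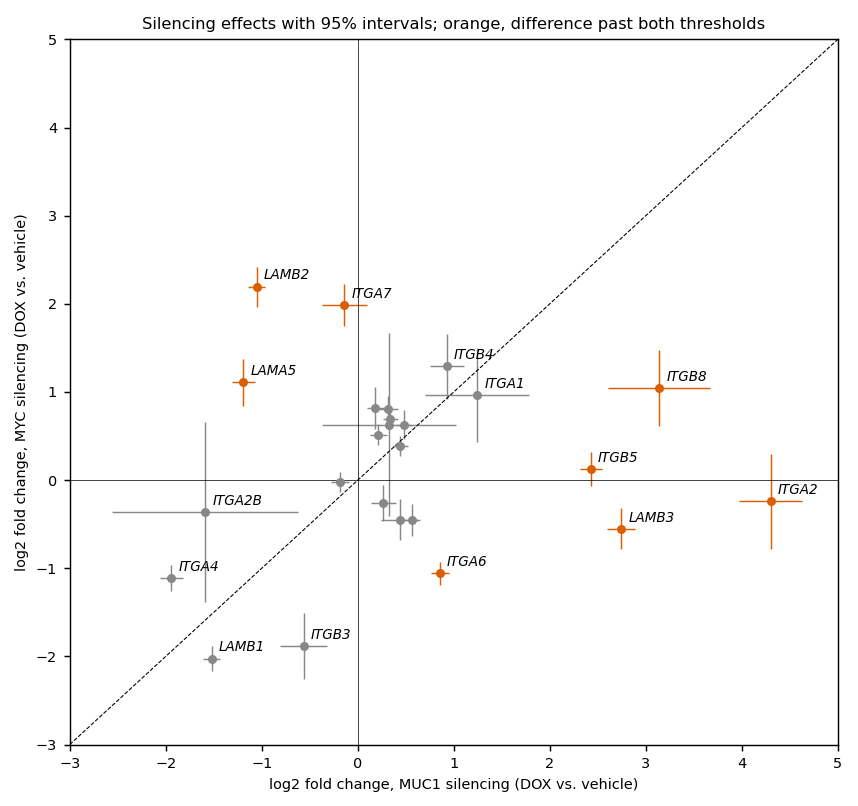
Log2 fold change with MUC1 silencing (x axis) against that with MYC silencing (y axis) for the members tested in both comparisons, with 95% intervals. The dashed line marks equal effects, and orange marks the 8 members whose difference was past both thresholds. LAMB2, LAMA5 and ITGA7 lie above the line, ITGA2, LAMB3, ITGB5, ITGB8 and ITGA6 lie below it, and LAMB1, ITGA4 and ITGB3 fell in both.

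The other genes of the attachment pathway were taken from 3 lists: 14 further matrix ligands, 10 basement membrane partners, and 17 adaptors and kinases that link integrins to actin. Their counts stand beside shares of all genes tested of 32.0% higher and 31.7% lower in 3D vs. 2D cells, 30.7% and 31.6% with MUC1 silencing, 11.1% and 12.9% with GO-203, and 30.3% and 28.1% with MYC silencing. Of the matrix ligands, 3 of the 12 tested rose in 3D vs. 2D cells and 9 fell. FN1 (fibronectin, log2 fold change 3.89) and the microfibrillar collagen chains COL6A1 (3.58) and COL6A2 (4.68) rose, and COL1A1 (-4.18), COL1A2 (-0.30) and THBS1 (-3.53) fell. With MUC1 silencing 5 of 12 rose and 6 fell, led by THBS1 (4.43), while COL6A1 (-1.47), COL6A2 (-1.45) and FN1 (-0.51) fell. With MYC silencing 9 of 14 rose and 0 fell at an adjusted p below 0.1 in edgeR's test, including COL6A1 (2.08), COL6A2 (1.87), COL1A2 (1.67) and FN1 (1.25). With GO-203, 8 of 12 rose and 0 fell, by at most 1.07 (COL3A1, named after its value was seen). The medians of the matrix ligands tested were -0.76 in 3D vs. 2D cells, -0.39 with MUC1 silencing, 0.30 with GO-203 and 1.08 with MYC silencing.

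Of the basement membrane partners, 2 of 10 rose and 7 fell in 3D vs. 2D cells, with HSPG2 (perlecan, -3.36) and AGRN (agrin, -2.05) lower and PLEC (the hemidesmosome linker plectin, 0.61) higher. The dystroglycan gene DAG1 fell by 0.71, DST, which encodes another hemidesmosome linker, by 0.22 and CD151, a tetraspanin that binds laminin receptors, by 0.43. With MUC1 silencing 4 rose and 5 fell, with GO-203 1 of 9 rose and 1 fell, and with MYC silencing 8 of 10 rose and 0 fell, among them PLEC (1.07), HSPG2 (0.66), CD151 (0.48), DST (0.43) and DAG1 (0.40). Of the adaptors and kinases, 9 of 17 rose and 3 fell in 3D vs. 2D cells, 5 rose and 8 fell with MUC1 silencing, 4 rose and 4 fell with GO-203, and 9 rose and 4 fell with MYC silencing. TLN1 (talin) and ZYX (zyxin) rose in 3D vs. 2D cells (0.27 and 0.66) and with MYC silencing (0.24 and 0.50) and fell with MUC1 silencing (-0.50 and -0.52). The focal adhesion kinase gene PTK2 followed the same signs with smaller values (0.23, 0.15 and -0.14). VCL (vinculin) did not pass in 3D vs. 2D cells (-0.04) and rose with MUC1 and MYC silencing (0.23 and 0.26). FERMT2 (a kindlin) was lower in 3D vs. 2D cells (-0.58) and with MUC1 silencing (-0.13) and higher with GO-203 (0.56) and MYC silencing (0.46). TNS3 (a tensin) was higher in 3D vs. 2D cells (0.31), with GO-203 (0.53) and with MYC silencing (1.74) and lower with MUC1 silencing (-0.14).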

How the data were processed

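Total RNA of 21 BT-549 cultures was sequenced as poly(A)-selected, stranded, paired-end libraries, and the deposited values are raw counts per gene. According to the study, the authors aligned reads to GRCh38 with STAR and made the counts with featureCounts. The study gives STAR 2.7.9a and the submitters' processing notes 2.7.3a, while the annotation release, strand setting and treatment of multimapping reads are not given in the sources used here. Such choices decide how reads of overlapping genes and pseudogene copies are counted. Genes without a value in a block of columns were read as 0 there. They numbered 6498 in the 2D and 3D columns, 7587 in GO-203, 4952 in tet-MUC1shRNA and 5761 in tet-MYCshRNA. The GO-203 comparison thus joins columns with different sets of such genes.

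Each comparison was a fit of its own 6 libraries, and the difference of silencings a fit of 12, with edgeR 4.0.16 in R 4.3.3: filterByExpr, TMM factors, quasi-likelihood F tests, with p-values adjusted after Benjamini-Hochberg over every gene tested. A gene rose or fell at an adjusted p below 0.1, as in the study's methods. The second threshold was an absolute log2 fold change of 1.5, as a figure legend of the study has it, and its results text names a fold change of 1.5, which was an alternative. SE is the log2 fold change divided by the square root of F, and intervals are 1.96 SE to each side, which cover the spread between these libraries only. Exon lengths are those of GENCODE 44 (GRCh38). On simulated counts of each comparison, 100% of 200 genes changed by a log2 of 2 were recovered. The changed genes were drawn from well-counted genes, and the spread was set to the same value for every gene. Recovery of members with few counts, or with a wider spread, was therefore not tested.

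The 35 members, the 3 pathway lists and the marker lists were chosen with earlier results of these data known. Values per culture are given for members past both thresholds in any comparison or with a large share of their class, the other members by their fold changes or counts, and named pathway genes are the 6 of each list with most reads. Replicate numbers were not treated as pairs in the main fits. The mean correlations of deviations from group means between same-numbered samples were -0.08, 0.05, 0.19 and -0.28. The highest single value was 0.39, for GO-203 replicate 1. With groups of 3 such correlations cannot exclude pairing. All 21 replicate pairs differed by more than counting noise (chi-square per degree of freedom 4.36 to 52.8). Alternatives were RLE factors, library size alone, other count filters, DESeq2 1.42.0, 1 fit of all 21 libraries, a replicate block, leaving out each library, and vehicle-treated lines in place of 3D cells.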

Additional observations from a re-analysis of the deposited data

Results flagged for a closer look

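The effect of silencing differed between the tet-MUC1shRNA and the tet-MYCshRNA mammospheres for 8 members in the interaction over 12 libraries (edgeR's quasi-likelihood test, Benjamini-Hochberg adjustment). ITGA2 differed by 4.54 on the log2 scale (adjusted p = 1.6e-09), being at 12.5 to 12.9 CPM in the 3 DOX-treated tet-MUC1shRNA libraries and at no more than 1.06 CPM in the other 18. LAMB3 differed by 3.28 (adjusted p = 2.4e-12) and ITGB5 by 2.29 (9.4e-11). ITGB8, a gene at 0.261 to 3.54 CPM in these 12 libraries, differed by 2.09 (0.000106). The ITGA6 effects had opposite signs and differed by 1.90 (2.2e-12). Lower with MUC1 than with MYC silencing were LAMB2 by -3.26 (1.9e-12), LAMA5 by -2.32 (2.8e-09) and ITGA7 by -2.14 (2.5e-09). The lines also differ in passage, MYC was reduced less (-0.62) than MUC1 (-2.06) in its own line, and MUC1 rose with MYC silencing (1.25), so that line, passage, degree of silencing and the opposite movement of MUC1 cannot be told apart. No group holds 4 or more samples, so no search for outlying samples within groups was made beyond the chi-square of replicate pairs.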

How the results depend on the processing

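With DESeq2, 127 of 127 values for tested members and their counts kept their direction and their side of the threshold. With an absolute fold change of 1.5 in place of a log2 of 1.5, the members past both thresholds were 14 in 3D vs. 2D cells, 13 with MUC1 silencing, 5 with GO-203 and 14 with MYC silencing, against 39.0%, 32.2%, 5.63% and 37.7% of all genes. Under a minimum of 10 counts per library they were 5 with MUC1 silencing, and without a low-count filter 7 with MYC silencing. With vehicle-treated lines in place of 3D cells, ITGB3 was higher than in 2D cells (1.84 for tet-MUC1shRNA and 0.42 for tet-MYCshRNA) and LAMB2 was lower (-0.998 for tet-MYCshRNA). The cause of these changes was not tested, beyond the smaller or larger sets that the thresholds and filters leave.

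Scaling by library size alone moved the all-gene median from 0.02 to 0.19 (log2) with MUC1 silencing, and the share of calls past both thresholds that were upward from 65.1% to 74.7%. For the difference between silencings it moved them from 0.05 to 0.25 and from 47.0% to 59.4%. The LAMA4 difference between silencings (-0.17, adjusted p = 0.0788) turned to 0.031 there. That difference was also lost with RLE factors (adjusted p = 0.114), without a low-count filter (0.570), with at least 10 counts per library (0.243), in the fit of 21 libraries (0.139) and in 6 of 12 fits without 1 library. With the replicate number as a block it was lost too (adjusted p = 0.178), as was the LAMA2 decrease with MYC silencing (adjusted p = 0.164), and the block left 125 of 127 values as they were. Its counts past both thresholds were 9, 8, 1, 4 and 8. Leaving out 1 library at a time gave 9 members past both thresholds in 3D vs. 2D cells, 6 to 8 with MUC1 silencing, 1 with GO-203, 4 with MYC silencing and 8 for the difference. Members that rose or fell ranged from 10 to 11 and 7 to 8 in 3D vs. 2D cells, 5 to 7 and 5 with GO-203, and 12 to 13 and 7 to 8 with MYC silencing, and were 17 and 7 throughout with MUC1 silencing.

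Shares of a chain in its class moved by up to 24.4 percentage points with the MANE Select length, an alternative chosen after seeing the data, and by up to 24.96 without division by length. Depth limits what can be said of genes with few counts, such as ITGA1, ITGA2B, ITGA9, ITGA11 and ITGB6.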
